A study of Homo sapiens with 21 samples.

Results

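The regions described here are places in the genome where RUNX1 was called bound in every peak list of the G365R and WT clones and in no list of the R232fs and Y287X clones. They were chosen by the presence or absence of called peak summits, not by peak strength. Windows of 100 bp on each side of the summits of all 14 peak lists were merged on chromosomes 1 to 22 and X. A region was kept when a summit of all 6 G365R and WT lists fell in it and no summit of the 8 R232fs and Y287X lists did. There were 481 such regions, 0.252% of the 190855 merged regions and 2.69% of the 17905 regions that held a summit in all 6 lists (exact 95% binomial interval 2.45% to 2.93%, counting error only). The other 17424 of these 17905 regions, called "the others" here, had a summit in at least 1 of the 8 lists.

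RUNX1 binding was mapped by ChIP-seq, the sequencing of DNA that an antibody pulls down with its protein, in clones of Jurkat, a human T-cell leukaemia line in long use, with epitope tags on RUNX1. The G365R, R232fs and Y287X clones carry the tag HA on the mutant protein and TY1 on the wild-type protein, 2 clones each, and the single WT clone carries both tags on wild-type protein. Each clone gave 1 HA and 1 TY1 list, so the 14 lists come from 7 clones grown from single cells. The 7 control samples were not analysed here as lists, and a difference between genotypes cannot be told apart from a difference between clones.

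RUNX1 binds DNA through its Runt domain together with the partner CBFB, and recruits activators and repressors through its C-terminal part. It is needed for blood stem cells and for T-cell development, and inherited changes in it predispose to leukaemia. R232fs and Y287X truncate the protein behind the Runt domain, whereas G365R exchanges a single amino acid in the C-terminal part.

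The lists on both sides of the rule also differed in kind. The highest summit pileup (the number of overlapping fragments at a summit, solved from each peak's fold and p-value) ran from 385 to 480 in the 6 lists and from 2904 to 17735 in the 8. The 6 lists held 30563 to 61793 peaks and the 8 held 40112 to 86433. Absence from the 8 lists therefore cannot be attributed to genotype here, and the part of these differences in it was not tested.

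In fold enrichment the 481 regions lay around the middle of the regions in all 6 lists. Fold enrichment is the authors' ratio of summit pileup to local background for each peak. The median over the 6 lists was 6.02 in the middle region, with an interquartile range of 4.78 to 7.66 and a full range of 2.09 to 23.3. The others had a median of 5.95, a wider interquartile range of 4.02 to 9.36 and a highest value of 68.9. Ranked within each list among the regions in all 6, the middle member stood at the 51.1 percentile. Both ends of the scale were thinly filled, with 12 of the 481 regions (2.49%) among the strongest 10% of regions in all 6 lists by median fold, 0 among the strongest 1%, and 12 among the weakest 10%. These values belong to the calls that chose the regions and are given as a description without a test.

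**Figure D1:**
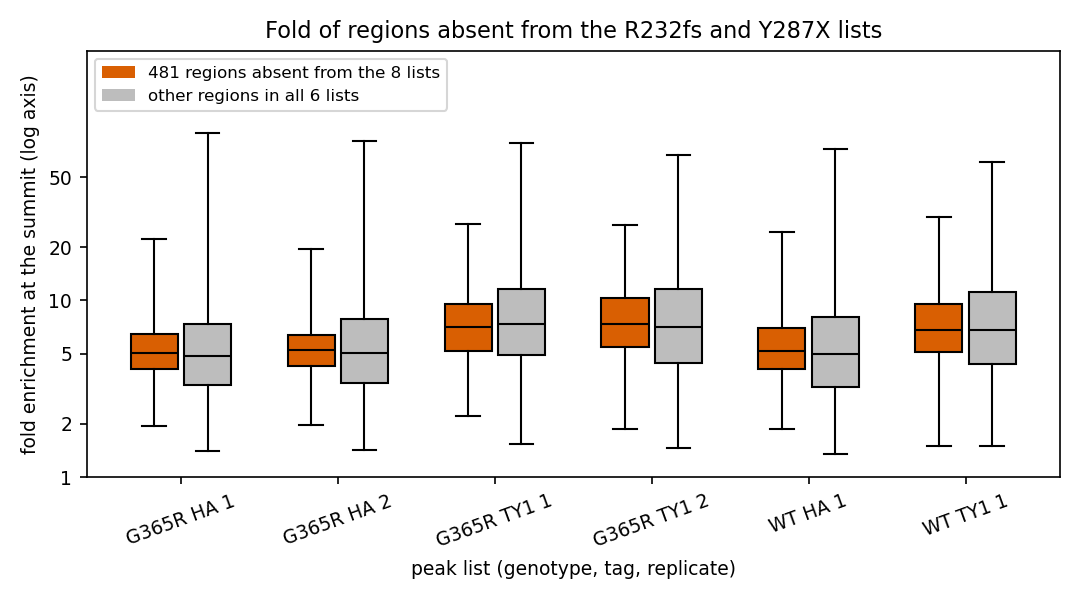
Fold enrichment at the summit (log axis) in each of the 6 G365R and WT lists for the 481 regions (orange) and the other regions in all 6 lists (grey). Boxes span the quartiles with the median line, and whiskers run from the lowest to the highest value. The medians of both sets lie close together in every list, and the 481 regions lack the upper tail of the others.

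List by list, the median fold of the 481 regions was 5.03 and 5.21 in the HA lists of the G365R clones and 5.19 in the WT HA list. It was 7.06 and 7.39 in the TY1 lists of the G365R clones and 6.79 in the WT TY1 list. The medians of the others were 4.84, 5.05 and 4.98 under HA and 7.33, 7.05 and 6.79 under TY1, in the same order. Fold was thus higher under TY1 than under HA for both sets, in the mutant clones as in the WT clone.

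The middle member had 1.98 times as high a fold in its strongest as in its weakest list. In 433 regions (90.0%, against 93.4% of the others) the strongest of the 6 folds was in a TY1 list. TY1 fold exceeded HA fold in 417 of the 481 regions in the first G365R clone, in 400 in the second and in 408 in the WT clone. Among the others it did so in 94.2%, 89.9% and 91.05%, in the same order, a higher share than among the 481 in each clone. Every TY1 fold lay above every HA fold in 202 regions (42.0%, against 57.8% of the others).

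The strongest region was on chromosome 8 at 32002482 to 32002757 (hg19, counted from 1 as all positions here). Its fold was 22.4 and 16.8 in the G365R HA lists, 21.5 and 25.3 in the G365R TY1 lists, 24.2 in WT HA and 29.3 in WT TY1. All 6 lists placed it high, at a median percentile of 96.5, and the nearest summit of the 8 lists lay 26571 bp away.

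The second was on chromosome 13 at 58659974 to 58660228, with folds of 16.6 and 19.7 in G365R HA, 15.1 and 24.2 in G365R TY1, 23.8 in WT HA and 27.4 in WT TY1. Here the WT values exceeded those of the first G365R clone under both tags. The nearest summit of the 8 lists was 59410 bp away.

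The third, on chromosome 1 at 115893836 to 115894096, had folds of 11.5 and 14.7 in G365R HA and 13.2 in WT HA, against 27.2 and 25.7 in G365R TY1 and 29.8 in WT TY1. Its HA and TY1 values did not overlap. A region of chromosome 5, at 16067607 to 16067846, had the same order, with HA folds of 11.5, 12.8 and 16.6 and TY1 folds of 20.8, 19.9 and 26.8 (both G365R clones, then WT).

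Another region of chromosome 5, at 85822658 to 85822926 was weakest in the WT clone under each tag, with 8.23 in WT HA against 16.6 and 15.4 in G365R HA, and 18.5 in WT TY1 against 23.6 and 25.3 in G365R TY1. The region on chromosome 2 at 196078918 to 196079141 also had its lowest HA and TY1 folds in WT, with 12.2 against 16.8 and 14.5 under HA and 15.1 against 25.5 and 26.9 under TY1. The region on chromosome 10 at 106517488 to 106517742 had its highest HA fold in WT, 18.1 against 12.5 and 10.9. So even among the strongest regions no single order of genotypes held.

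The rest of the 10 strongest were on chromosome 4 at 118620920 to 118621182 (median fold 16.7) and at 55660322 to 55660568 (15.4), and on chromosome 8 at 8945437 to 8945673 (15.9). The last of these met the rule only narrowly. A summit of the 8 lists lay 183 bp away, and 7 of the 8 lists had a peak that covered part of the region with its summit elsewhere.

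The member nearest the median was on chromosome 13 at 44771931 to 44772281. Its fold was 4.63 and 5.46 in G365R HA, 6.71 and 7.44 in G365R TY1, 4.72 in WT HA and 6.57 in WT TY1, from pileups of 28 to 61 fragments. It shows the common form of these regions, a peak of moderate fold with few fragments and a higher fold under TY1.

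Of the 5 weakest regions, the weakest had a different build. The weakest of all was on chromosome 13 at 110076463 to 110076723, with folds of 3.06 and 2.97 in G365R HA, 2.29 and 1.88 in G365R TY1, 1.87 in WT HA and 1.49 in WT TY1. Its pileups of 158 to 203 fragments were far above those of most of the 481 regions, so the low fold stood on a high local background, and here fold was higher under HA in each clone.

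On chromosome 21 at 43299423 to 43299707 (median fold 2.28) all 8 R232fs and Y287X lists had a covering peak with the summit elsewhere, the nearest 123 bp away. The other three were on chromosome 2 at 105440806 to 105441027 (2.29) and on chromosome 13 at 114921658 to 114921964 (2.41) and at 42119383 to 42119709 (2.52). Chromosome 13 thus held 3 of the 5 weakest regions as well as the second strongest.

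Where fold matched that of the others, the number of fragments did not. The median summit pileup of the 481 regions was 24 in both G365R HA lists and 34 in WT HA, against 57, 57 and 83.0 in the others. Under TY1 it was 37.7 and 48 in the G365R lists and 46.4 in WT, against 100.4, 113 and 122. The median local background was lower as well, from 3.22 to 4.77 fragments against 7.32 to 11.9 in the others. The 481 regions were thus shallower peaks on lower background, in each of the 6 lists. Pileups of the first G365R TY1 list and the WT TY1 list had been scaled before deposit, with only 8.08% and 6.84% of them whole, so levels are not compared between lists.

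**Figure D2:**
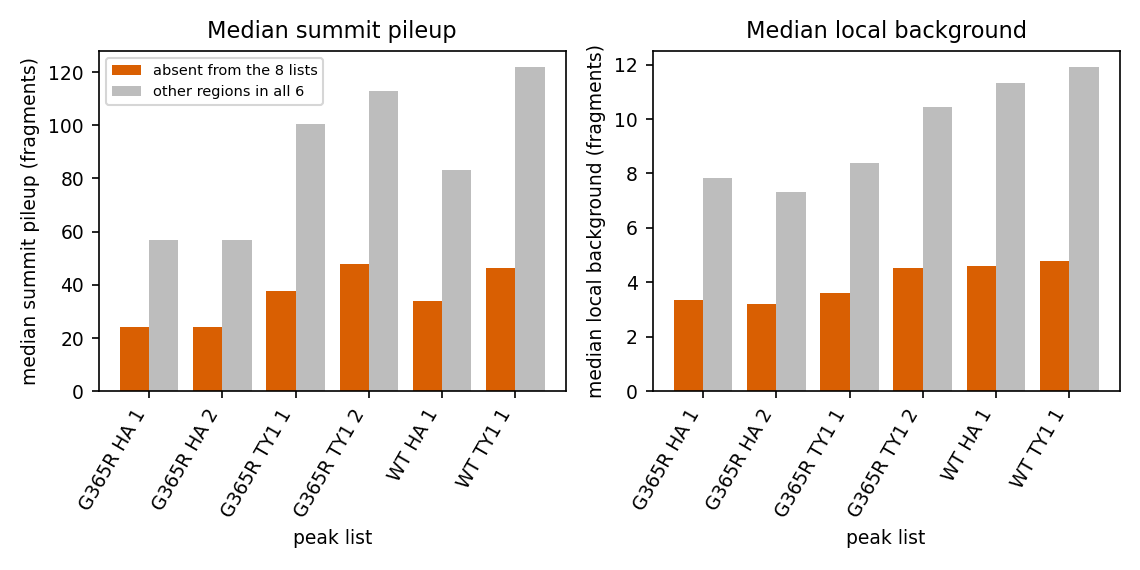
Median summit pileup and median local background, in fragments, in each of the 6 G365R and WT lists, for the 481 regions (orange) and for the other regions in all 6 lists (grey). Both quantities are lower in the 481 regions in every list.

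A fixed background value, the commonest of a list, stood under many peaks. In the 4 lists of unscaled pileups it stood under 61.3% to 66.3% of the 481 regions and under 22.7% to 27.1% of the others. The median −log10 q-value of the 481 regions ran from 8.93 (first G365R HA) to 25.6 (second G365R TY1), and that of the others from 17.4 to 55.0. Their peaks were narrower, with medians of 345 to 477 bp against 465 to 653 bp. Within their own full lists the 481 regions still stood in the upper part by fold, at median percentiles of 67.3 to 83.4.

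Summits within these regions were less tightly placed. The 6 summits of a region spanned a median of 85 bp, against 69 bp in the others, and lay within 50 bp in 18.1% of the 481 regions, against 31.7%. The mean HA and TY1 summits lay a median of 25 bp apart in G365R and 31 bp apart in WT (20 and 23 bp in the others).

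The ranks of a region also differed more between lists. The difference between its highest and lowest percentile over the 6 lists had a median of 28.6 percentage points, against 21.5 in the others. Both measures of spread moved with the lower pileups given above, and the part of pileup in them was not tested.

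How empty of R232fs and Y287X signal these places were varied widely. The nearest summit of any of the 8 lists lay at a median distance of 4452 bp, with an interquartile range of 1070 to 16205 bp. In 70 regions (14.6%) it lay within 500 bp, in 116 (24.1%) within 1 kb and in 463 (96.3%) within 100 kb. At the far end, the region on chromosome X at 76618786 to 76619053 (median fold 10.2) had no such summit within 351683 bp.

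A peak need not have its summit in a region to cover it. In 59 of the 481 regions (12.3%) at least 1 of the 8 lists had a peak that overlapped the region with its summit elsewhere, and in 17 regions all 8 lists did. Single lists covered 26 to 43 regions in this way. The other 422 regions were touched by no peak of the 8 lists.

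The wider surroundings of the 481 regions also held fewer R232fs and Y287X regions. Within 100 kb of a member, and not counting the member itself, the mean number of merged regions with a summit of a given list was compared with the mean around the others. The ratio ran from 0.553 to 0.686 in the 8 lists and from 0.972 to 1.20 in the 6. In the second R232fs HA list the means were 7.12 and 12.8 regions, and in the WT HA list 7.98 and 6.66. Without chromosome 13 the ratios were 0.550 to 0.675 and 0.903 to 1.06. The 8 lists were thus sparser around the 481 regions than around the others. The rule itself favours this order. Members had to lack a summit of the 8 lists and the others had to hold at least 1, whereas both sets are in all 6 lists. How much of the gap between the 6 and the 8 lists follows from the rule was not tested. No test is given, since the same lists chose the regions.

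**Figure D3:**
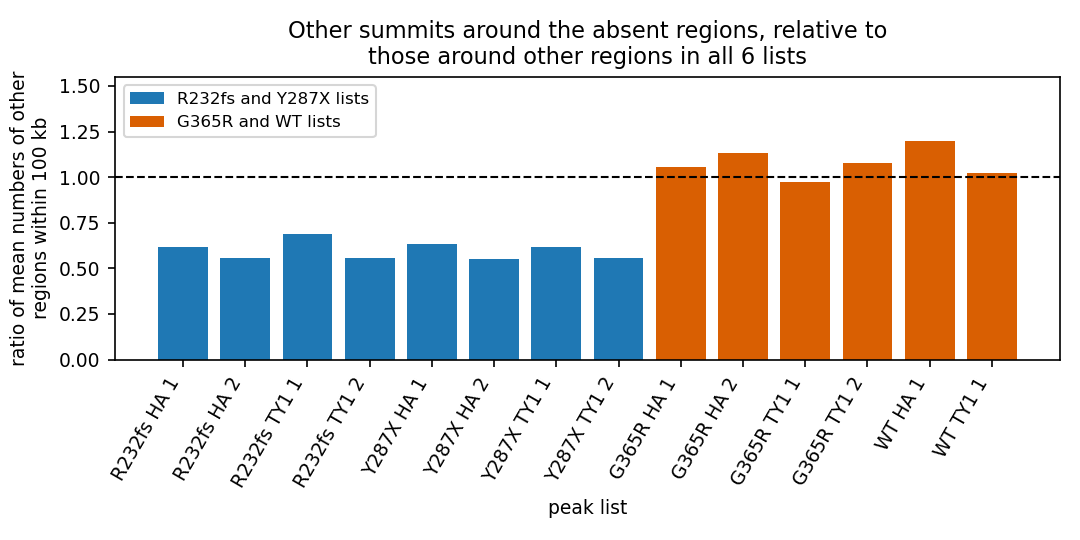
Mean number of other merged regions within 100 kb around the 481 regions divided by the same mean around the other regions in all 6 lists, for each of the 14 lists. The 8 R232fs and Y287X lists lie between 0.553 and 0.686, and the 6 G365R and WT lists between 0.972 and 1.20. The same lists chose the regions, and the rule favours lower ratios in the 8.

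By chromosome, the 481 regions were concentrated on chromosome 13. It held 63 of them (13.1%), against 3.79% of the regions in all 6 lists. Of the 678 regions in all 6 lists on chromosome 13, 9.29% had no summit in the 8 lists, against 2.43% of the 17227 on the other chromosomes. The next highest shares were 4.28% on chromosome 5 and 3.99% on chromosome 4. The lowest were 0.855% on chromosome 22, 0.916% on chromosome 19 and 1.10% on chromosome 21, with 3, 5 and 3 regions.

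**Figure D4:**
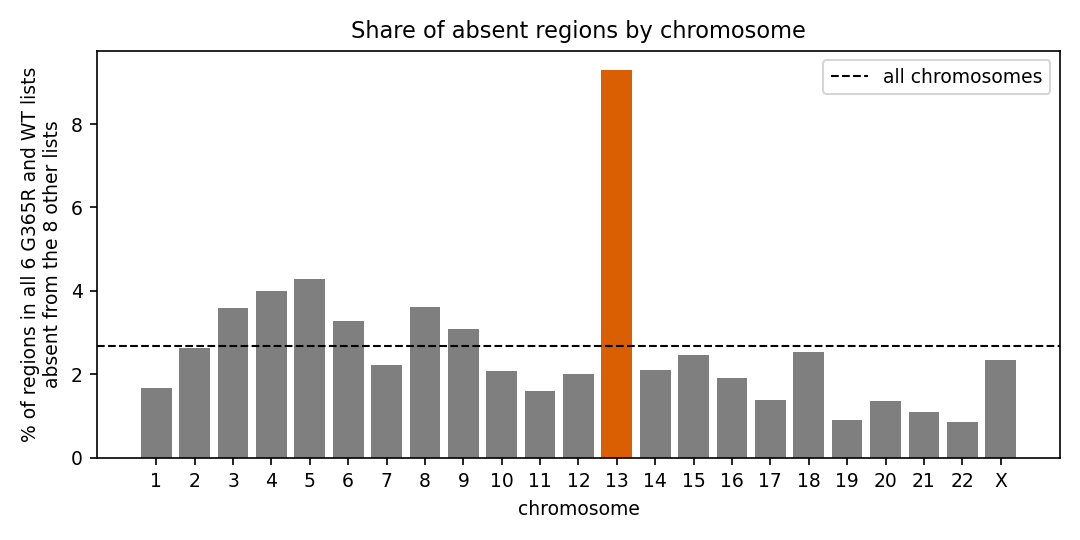
Share of the regions in all 6 G365R and WT lists that had no summit in any of the 8 R232fs and Y287X lists, by chromosome. The dashed line is the share over all chromosomes, 2.69%. Chromosome 13 (orange) stands at 9.29%, and the next highest, chromosome 5, at 4.28%.

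The chromosome 13 regions were weaker than the rest. Their median fold was 5.23, against 6.22 for the 418 regions elsewhere, and their median percentile 43.0 against 52.1. The others on chromosome 13 stood at a median percentile of 54.1, so the low ranks were those of the regions absent from the 8 lists. Only 2 of the 63 lay under a covering peak of the 8 lists, and the nearest summit of these lists was at a median of 3915 bp, against 4632 bp off chromosome 13.

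Signal on chromosome 13 as a whole differed between both sets of lists. Its share of the peaks was 2.09% to 2.47% in the 8 lists and 3.20% to 4.84% in the 6. At the 321 regions of chromosome 13 that had a summit in all 14 lists, the median log2 summit pileup, centred on each list's own median, was −0.82 to −0.60 in the 8 lists and −0.19 to 0.02 in the 6. The difference of the means was −0.63 on the log2 scale, a ratio of 0.646. The local background at the same regions was −1.17 to −0.97 against −0.35 to −0.12, a difference of −0.83 and a ratio of 0.561.

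Chromosome 13 was not alone in this. The 6 and the 8 lists did not overlap in this centred pileup on 10 of 23 chromosomes (43.5%), nor in the background on 8 (34.8%). Pileup was lower in the 8 lists on chromosomes 2, 3, 4, 8 and 13, and higher on 14, 16, 17, 19 and 22. Whether the number of copies of chromosome 13 differed between the clones was not tested, and genotype, clone and kind of list cannot be told apart.

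**Figure D5:**
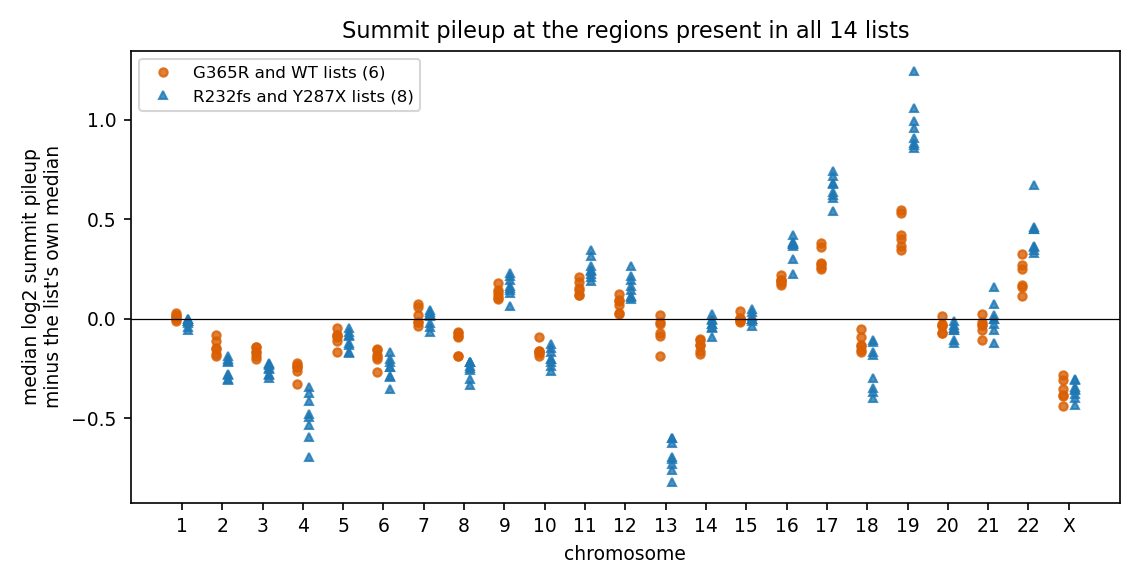
Median log2 summit pileup on each chromosome at regions in all 14 lists, centred on each list's own median, for the 6 G365R and WT lists and the 8 R232fs and Y287X lists. On chromosome 13 the 8 lists lie between −0.82 and −0.60 and the 6 lists between −0.19 and 0.02.

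Along chromosome 13 the share of members varied from bin to bin. In bins of 10 Mb, 10 of 129 regions in all 6 lists were members between 20 and 30 Mb (7.75%), 1 of 67 between 30 and 40 Mb (1.49%), 19 of 141 between 40 and 50 Mb (13.5%) and 14 of 93 between 50 and 60 Mb (15.1%). Farther along there were 1 of 24 between 60 and 70 Mb (4.17%), 7 of 44 between 70 and 80 Mb (15.9%), 4 of 22 between 80 and 90 Mb (18.2%) and 3 of 49 between 90 and 100 Mb (6.12%). The last bins held 2 of 55 between 100 and 110 Mb (3.64%) and 2 of 54 between 110 and 120 Mb (3.70%). Members were thus found in every bin, and the shares of the thinly filled bins rest on few regions. The pileup of the 8 lists minus that of the 6, on the log2 scale at regions in all 14 lists, was −0.03 and −0.10 in the last bins. The median of this difference over the 263 bins compared over the genome below was 0.12. The bin values are thus not to be read against 0, nor against the centred chromosome values above. From 20 to 60 Mb it was −0.43, −0.58, −0.31 and −0.62 bin by bin, and from 60 to 100 Mb −0.61, −0.34, −0.91 (at 5 regions) and −0.55. The bin with the lowest difference, −0.91, had the highest share of members (18.2%), and the last bins, with −0.03 and −0.10, had low shares (3.64% and 3.70%). Other bins went the other way: the bin with 1 member of 67 had −0.58, and that with 19 of 141 had −0.31.

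Over the genome the same 2 quantities were weakly and inversely related. Only bins with at least 20 regions in all 6 lists and 10 in all 14 were used. In 263 bins of 10 Mb, the pileup difference (the 8 minus the 6 lists, at regions in all 14) and the share of regions in all 6 lists that were members had a Spearman coefficient of −0.27 (−0.23 over the 254 bins off chromosome 13). With the bins split by this difference into 4 groups of 65 or 66, 4.33% of the regions in all 6 lists were members in the group with the lowest difference, and 2.94%, 1.96% and 1.71% in the next groups. Without chromosome 13 the shares were 3.54%, 2.75%, 1.90% and 1.72%. These bins share the same libraries, and both quantities come from the lists that chose the regions, so no p is given.

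Most of the regions lay singly. Of the 481, 291 (60.5%) were the only one in their 1 Mb window, and the 481 were spread over 362 of the 2392 windows that held a region in all 6 lists. The nearest other member was at a median distance of 904440 bp. It lay within 10 kb for 24 regions, within 100 kb for 107 (22.2%) and within 1 Mb for 248 (51.6%). On chromosome 13 the median was 78557 bp and elsewhere 1214440 bp. The same counts were not made for an equal number of other regions. They therefore do not show whether members were sparser or denser than such a set.

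A minority lay in groups. The 26 windows with 3 or more held 100 regions (20.8%), and 8 of these windows, with 36 regions, were on chromosome 13. The fullest window was chromosome 13 from 51000001 to 52000000, with 8 of its 37 regions in all 6 lists, the strongest at 51250617 to 51250922 (median fold 6.75). Per 10000 peaks of a list, this window held 15.3 to 29.4 summits in the 6 lists and 4.90 to 9.22 in the 8.

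Next came chromosome 13 from 42000001 to 43000000, with 7 of 20 regions and the strongest at 42951765 to 42952009 (median fold 7.73). It held 9.24 to 16.8 summits per 10000 peaks in the 6 lists and 3.01 to 5.78 in the 8. As in the fullest window, the lists of both sides did not overlap.

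Off chromosome 13 the fullest windows were on chromosomes 6, 9 and 3. Chromosome 6 from 86000001 to 87000000 held 6 of 16 regions, the strongest at 86728358 to 86728631 (median fold 12.4), with 8.75 to 10.8 summits per 10000 peaks in the 6 lists and 3.43 to 6.73 in the 8. Chromosome 9 from 85000001 to 86000000 held 6 of 13, the strongest at 85609180 to 85609455 (8.11), with 4.71 to 6.54 against 0.736 to 1.61. Chromosome 3 from 18000001 to 19000000 held 5 of 31, the strongest at 18871637 to 18871928 (9.69), with 14.1 to 23.5 against 3.21 to 8.48. A window of chromosome 13, from 26000001 to 27000000, also held 5.

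Per 10000 peaks, the 8 lists lay below the 6 in each of these windows, without overlap. Part of this gap follows from the rule, since the windows were picked for their members. Each member adds a summit to all 6 lists and none to the 8, and the members were not taken out of these numbers. Not every window with 3 or more members was without overlap. Chromosome 20 from 20000001 to 21000000, with 3, held 5.23 to 9.07 against 3.56 to 6.71. The raw numbers were lowest on chromosome 9. Single lists of the 8 had 5 to 8 summits in the chromosome 9 window, and the 6 lists had 19 to 34.

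At close range the regions were rarely neighbours. Runs with no more than 10 kb between one region and the next numbered 11. The longest was on chromosome 13 at 42943168 to 42963853 and held 4 regions with median folds of 4.52 to 7.73, and the other 10 held 2 each. The longest of these were on chromosome 14 at 38534316 to 38544313, chromosome 6 at 86683583 to 86690880, chromosome 9 at 85341637 to 85348006 and chromosome 1 at 177238032 to 177243488.

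The nearest region in all 6 lists was itself a member for 37 of the 481 (7.69%), 6 of the 63 on chromosome 13 (9.52%) and 31 of the 418 elsewhere (7.42%). Among the regions in all 6 lists, 9.29% were members on chromosome 13 and 2.43% elsewhere. The share on chromosome 13 was thus near that of the chromosome, and the share elsewhere was above its background.

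In the run of 4 on chromosome 13, the strongest region, at 42951765 to 42952009, had folds of 6.0 and 6.85 in G365R HA, 12.2 and 11.4 in G365R TY1, 5.92 in WT HA and 8.62 in WT TY1. The nearest summit of the 8 lists was 641 bp away, and no peak of these lists touched any of the 4 regions.

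Tag and genotype could be compared within the 481 regions, because a member had to be in all 6 lists whatever its tag. Fold was turned into normal scores of its rank within each list over the 17905 regions, and limma was fitted with 4 groups of genotype and tag (2 residual degrees of freedom, Benjamini-Hochberg adjustment over 17905 regions, threshold 0.05, two-sided). HA marks the mutant protein in G365R and wild-type protein in WT, so HA minus TY1 in WT compares the tags with no mutant protein present. It rests on 1 clone, and its HA and TY1 lists also differ in length (37472 and 59452 peaks) and in the scaling of pileups. WT has 1 list per tag and adds nothing to the estimate of spread, which comes from the G365R lists, and the WT lists are assumed to vary like them.

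In the fit without a clone term none of the 481 regions passed in any of the 5 comparisons. For HA minus TY1 in G365R 0 members passed, and over all 17905 regions 2 did (0.0112%). For HA minus TY1 in WT 0 of either passed. For G365R minus WT 0 members passed under HA (0.0112% of all regions) and under TY1 (0.0223%), and for the difference of HA minus TY1 between G365R and WT 0 of either. The lowest adjusted p of a member was 0.275 for HA minus TY1 in G365R and 0.199 for G365R minus WT under TY1 (limma).

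At an unadjusted p under 0.05 the counts were 68 members (14.1%, against 10.8% of all regions) for HA minus TY1 in G365R, and 20 (4.16%, against 3.58%) in WT. For G365R minus WT they were 36 (7.48%, against 8.29%) under HA and 49 (10.2%, against 7.36%) under TY1. For the difference of differences they were 2 (0.416%, against 0.961%).

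The size of the middle difference depended on the measure ranked. With fold, the median score difference over the 481 regions was 0.10 for HA minus TY1 in G365R and 0.06 in WT. It was −0.04 for G365R minus WT under HA and −0.06 under TY1, and 0.03 for the difference of differences. With ranks of −log10 p in place of fold it was 0.25 for HA minus TY1 in G365R and 0.26 in WT (0.01 and 0.02 over all regions), −0.09 and −0.03 for G365R minus WT under HA and TY1, and −0.03 for the difference of differences. With so few lists a missed threshold does not show that mutant and wild-type protein were bound alike there.

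HA and TY1 lists came in pairs from 1 clone, and with clone as a term (1 residual degree of freedom) 12 of the 481 regions passed for HA minus TY1 in G365R, 10 higher and 2 lower under HA. Over all regions 283 passed (1.58%), 1.09% higher and 0.491% lower, so 2.49% of the members stand beside 1.58% of all. In WT and in the difference between G365R and WT 0 members passed with this term, and WT has a single pair. With ranks of summit pileup in place of fold, and no clone term, 5 members passed for HA minus TY1 in G365R, 3 higher and 2 lower, beside 2.7% of all regions (1.38% higher and 1.32% lower). In the other comparisons of pileup ranks 0 members passed, beside 0.0279% of all regions for G365R minus WT under HA, 0.00559% under TY1 and 0 for the others.

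The region with the lowest adjusted p was the weakest of all, on chromosome 13 at 110076463 to 110076723, higher under HA by 2.01 ± 0.26 (score difference ± SE, 2 clones, limma adjusted p = 0.0265 with the clone term). In WT, where both tags mark wild-type protein, HA was higher there too, by 2.22. The order of the tags at this region was thus the same with and without mutant protein.

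On chromosome 1 at 121379409 to 121379744 the folds were 6.50 and 4.24 in G365R HA, 4.03 and 2.96 in G365R TY1, 4.61 in WT HA and 2.60 in WT TY1. HA was higher by 1.41 ± 0.22 in G365R (limma adjusted p = 0.0384 with the clone term) and by 1.92 in WT. The 1 Mb window of this region varied widely between lists, with 2.27 to 17.9 summits per 10000 peaks in the 6 lists. Regions prone to mapping artefacts were not filtered out, and whether this is one was not tested. On chromosome 2 at 105440806 to 105441027 HA was higher by 1.46 ± 0.26 (limma adjusted p = 0.0439) and by 1.19 in WT.

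Of the 2 regions lower under HA, that on chromosome 6 at 2989799 to 2990096 had folds of 4.20 and 2.93 in G365R HA against 12.0 and 9.14 in G365R TY1, and 4.43 against 9.33 in WT. The score difference was −1.13 ± 0.20 (limma adjusted p = 0.0439 with the clone term) and −0.62 in WT.

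The region on chromosome 8 at 3422137 to 3422412 had 3.23 and 4.50 in G365R HA against 8.59 and 13.2 in G365R TY1, and 6.44 against 9.05 in WT. Its score difference was −1.03 ± 0.19 in G365R (limma adjusted p = 0.0461 with the clone term) and −0.02 in WT. The difference between G365R and WT did not pass at either region.

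How sharply the rule marks off these regions can be seen from its neighbours. Of the regions in all 6 lists, 644 had a summit in exactly 1 of the 8 lists, 587 in exactly 2 and 11291 in all 8. The regions just outside, in exactly 1 of the 8, had a median fold of 6.84, against 6.02 inside, and those in all 8 one of 5.45. For 369 of the 644 the single list was the TY1 list of the first R232fs clone, and for 104 the HA list of that clone.

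That TY1 list alone decided the strongest regions just outside. On chromosome 1 at 199010748 to 199010988 the median fold over the 6 lists was 33.0 and the fold in this TY1 list 37.9. On chromosome 2 at 136894148 to 136894400 they were 28.0 and 43.2, and on chromosome 15 at 96580860 to 96581092 they were 27.5 and 20.6. Each of these exceeded the strongest of the 481 regions in median fold.

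Without the first R232fs clone the rule gave 1182 regions, at a median percentile of 58.2, with 55 of them among the strongest 10%, and 8.97% on chromosome 13. Leaving out a clone loosens the rule, so a rise in the number of regions is favoured whichever clone is left out. The middle rank moved as well, and the strongest 10% still held only 4.65% of the 1182 regions.

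On the other side of the rule, 626 regions had a summit in exactly 5 of the 6 lists and in none of the 8. The list that lacked them was the HA list of the first G365R clone in 261, that of the second in 193 and that of WT in 86. The TY1 lists lacked 35, 16 and 35. The HA lists were also the shorter ones, with 30609, 30563 and 37472 peaks against 57378, 61793 and 59452 under TY1, in the same order. The part of list length in these counts was not tested. The opposite pattern, a summit in all 8 R232fs and Y287X lists and in none of the 6, held for 336 regions, of which 4 were on chromosome 13. These were 0.818% of the 489 regions in all 8 lists there. The share was much the same on chromosomes X (0.797%) and 19 (0.840%), and was highest on chromosome 22 (2.93%).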

How the data were processed

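Per the submitters' processing notes, the authors used CASAVA 1.8, Bowtie2 2.2.9 and MACS2 2.2.7.1 with the genome build hg19. The settings of the peak caller are not given in these sources. The deposited narrowPeak lists, 1 per library, hold per peak the fold over background as a linear ratio, −log10 of the p-value and of the q-value, a score, and the summit offset. The lowest −log10 q was 1.30 to 1.32. Library depth is not part of such lists. The score was not analysed.

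Peaks off chromosomes 1 to 22 and X (1.41% to 2.17%) were left out. Windows of 100 bp on each side of the summits were merged across the 14 lists where they overlapped by 1 bp or more. Summit pileup and local background were solved from fold and −log10 p with the Poisson tail that MACS2 uses and its pseudocount of 1, which failed for 6 peaks of R232fs lists. Fold was compared between lists by rank, with limma 3.58.1 in R 4.3.3, checked on simulated data. Other steps used Python 3.11.15 with pandas 2.3.3 and scipy 1.17.1.

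The regions, comparisons and alternatives were chosen with earlier results of these data known. Named are the 10 strongest, the 5 weakest and the middle member, the 5 fullest 1 Mb windows, the 5 longest runs, up to 3 regions per direction and limma comparison, and the 3 strongest regions just outside. The region farthest from a summit of the 8 lists, the chromosome 13 window that tied with the fifth and the strongest region of the longest run were added after their values were seen. HA and TY1 lists were paired by clone, as the deposited list names give it. The differences between the G365R clones under HA and under TY1 correlated at 0.425 over all regions and at 0.249 over the members. No hg19 sequence or annotation was used here, so regions are named by position only, with no gene, exon or motif. Regions prone to mapping artefacts were not filtered out. Beyond the 2 clones of a genotype, no source names separate cultures, so p-values measure only the spread between these lists, which may be technical.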

Additional observations from a re-analysis of the deposited data

How the results depend on the processing

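Windows of 50 and 250 bp, whole peaks merged and peaks of −log10 q 3 or more gave 448 to 495 regions, against 481. Peaks of fold 5 or more gave 290, lists cut to an equal 30563 peaks 700 (285 of them among the 481), HA lists only 1395, TY1 lists only 4031, and no summit of the 8 lists within 500 bp 411. Leaving out 1 clone at a time, which loosens the rule as the lists of 1 tag alone also do, gave 523 to 1182. Without the 2 lists of scaled pileups, an alternative chosen after seeing the data, there were 573, and without chromosome 13, chosen likewise, 418. Among the clones left out, the first R232fs clone moved the number most.

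The median percentile was 53.1 with lists of equal length and 47.9 to 58.2 with 1 clone left out. The share on chromosome 13 was 8.14% with lists of equal length and 8.97% to 13.0% with 1 clone left out. In the settings that recomputed it, 8.27% to 22.8% of the chromosome 13 regions in all lists kept were members. With peaks of fold 5 or more, 8.27% on chromosome 13 stood beside 4.47% over all chromosomes. It was 10.5% beside 4.53% with lists of equal length, and 22.8% beside 10.04% with TY1 lists only. The main rule gave 9.29% beside 2.69%, a larger ratio, and windows of 250 bp gave 9.37% beside 2.42%, larger still. Chromosome 13 held 22 of 290 members with fold 5 or more and 297 of 4031 with TY1 lists only. The share in windows of 3 or more was 14.9% with 50 bp, 40.1% with 5 Mb windows, 15.3% without chromosome 13, and 20.1% to 31.7% with 1 clone left out.

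For HA minus TY1 in G365R, 5 members passed with ranks of summit pileup (484 of all regions, 2.7%) and 12 with the replicate block, that is the clone as a term. The block changed no other count of members. A random clone effect could not be fitted, and leaving out a G365R clone left no residual degrees of freedom, so only the median difference over members is given for it, 0.03 without the first clone and 0.16 without the second. With ranks of −log10 p the median was 0.25 in G365R and 0.26 in WT. HA minus TY1 kept its sign in G365R and in WT, whereas the medians of both G365R minus WT comparisons and of the difference of differences changed sign under some alternatives. Peak lists hold no library depth, which limits any statement that a site is unbound.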
